A study of Mus musculus with 3 samples.

Results

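The genes described here are 53 tubulin isotypes and microtubule-associated proteins (MAPs), chosen by name from the 41388 genes counted in sensory ganglia of the embryonic mouse. All 53 were found by mapping each Ensembl identifier to its GENCODE symbol. They comprise 7 alpha-tubulins, 8 beta-tubulins, 4 gamma-, delta- and epsilon-tubulins, 5 tubulin cofactors, 11 structural MAPs, 3 doublecortin family genes, 8 plus-end proteins, 3 minus-end proteins, 2 severing enzymes and 2 tubulin-modifying enzymes. RNA came from C57BL/6 embryos at 14.5 days post coitum that carried a Ret-EGFP reporter. By the series text these were heterozygotes with EGFP inserted at Ret; the genotype label reads Tg(Ret-EGFP)SJ. Dorsal root ganglia of levels T11 to S1 were dissociated, fluorescent cells were sorted, and RNA was pooled into 3 libraries that form 1 group with no unsorted or EGFP-negative control. Library A held 100 ganglia of 5 embryos (3 male and 2 female), library B 100 ganglia of 6 embryos (2 male and 4 female) and library D 80 ganglia of 4 embryos (3 male and 1 female). Because Ret encodes a receptor of only some sensory neurons, the libraries describe the cells in which this reporter was on and not the whole ganglion.

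Microtubules are built from dimers of 1 alpha- and 1 beta-tubulin, each encoded by several genes whose proteins differ mostly in their acidic C-terminal tails. Those tails project from the lattice, bind MAPs and motors, and carry the enzymatic marks of the tubulin code: removal and re-addition of a terminal tyrosine on alpha-tubulin and chains of glutamate on both subunits. In growing sensory axons, structural MAPs stabilise and space the lattice, plus-end proteins steer and feed the growing end, and minus-end proteins protect the other end.

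The coding ends show where many of the isotypes differ, though Tuba1a and Tuba1b encode the same residues there, as do Tubb2a and Tubb2b. Each line holds the last 60 bases of the coding sequence with the stop codon, 5′ to 3′ on the coding strand, read from GENCODE M21 transcripts on GRCm38. Of the alpha-tubulins, the 2 whose last codon is not tyrosine are shown, since that codon decides whether a terminal tyrosine is encoded, and capitals mark it.
Tuba4a, chr1:75215622-75215681, minus strand: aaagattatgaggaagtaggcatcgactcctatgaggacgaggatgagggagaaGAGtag
Tuba8, chr6:121226020-121226079, plus strand: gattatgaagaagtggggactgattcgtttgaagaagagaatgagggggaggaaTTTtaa
Tuba1a and Tuba1b ended in a tyrosine codon, as did Tuba1c, Tuba3a and Tuba3b, while Tuba4a ended in glutamate and Tuba8 in phenylalanine. Codon 40, whose lysine is the acetylation site inside the microtubule, was lysine in every alpha-tubulin but Tuba8, where it was alanine.

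The beta-tubulins of the highest levels are shown because their tails are the most divergent stretch of the protein, and capitals mark codons of the acidic residues glutamate and aspartate.
Tubb3, chr8:123421623-123421682, plus strand: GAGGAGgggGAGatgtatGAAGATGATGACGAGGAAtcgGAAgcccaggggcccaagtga
Tubb5, chr17:35834982-35835041, minus strand: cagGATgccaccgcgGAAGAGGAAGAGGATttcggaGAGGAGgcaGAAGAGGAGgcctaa
Tubb2a, chr13:34074468-34074527, minus strand: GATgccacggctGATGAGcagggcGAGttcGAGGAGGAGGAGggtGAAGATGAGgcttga
Tubb2b, chr13:34127471-34127530, minus strand: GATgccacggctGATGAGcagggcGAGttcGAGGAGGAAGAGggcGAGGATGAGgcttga
Tubb4a, chr17:57080690-57080749, minus strand: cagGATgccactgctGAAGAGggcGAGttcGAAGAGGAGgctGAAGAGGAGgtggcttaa
In the last 20 codons, stop included, acidic codons numbered 10 in Tubb3 and Tubb4a and 11 in Tubb5, Tubb2a and Tubb2b. Tubb3 alone of these 5 ended in a lysine codon; the others ended in alanine. The tails of Tubb2a and Tubb2b differed at few bases, none of which changes the residue encoded, and their whole coding sequences were 96.5% identical. Tuba1a and Tuba1b were closer still, at 98.3%, whereas Tubb3 and Tubb5 were 81.5% identical.

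Libraries A, B and D held 20181558, 20355302 and 29061086 counts. Levels are given as TPM, transcript abundance scaled to the same total in every library, computed from the counts and the deposited exon lengths, with SD over the 3 libraries. The libraries were separate preparations by their labels: the closest pair, A and B, differed by 45.5 times the variance of counting error. Each library is a pool of embryos, so the spread covers pools and technical noise together, and in such bulk samples fewer cells of a type and less RNA per cell cannot be told apart. Of the 8 neuronal markers listed, all reached 1 TPM, with a summed level of 10280 to 12913 TPM. Most of that sum was Stmn2, with 8033, 7136 and 9568 TPM in A, B and D, and the median of the 8 was 416 TPM. Markers of Schwann precursors and satellite glia summed to 490.3, 785 and 879 TPM in A, B and D, mostly from S100b and Fabp7, and 7 of 8 reached 1 TPM. The summed level of the 8 dividing-cell markers was 16.0 to 24.5 TPM, of 8 mesenchymal markers 28.6 to 91.0 TPM with library B highest, and of 6 erythroid markers 65.1 to 260.4 TPM with library D highest. Platelet, macrophage, endothelial and muscle markers summed to 20.7 TPM or less in each library, and Treml1 and Myog had no counts. The part of these other cells in the levels below was not tested.

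Alpha-tubulin mRNA was almost entirely Tuba1a, the alpha-tubulin of growing neurons, which had the highest mean level of all 41388 genes at 17626 ± 1281 TPM (SD, n = 3). Its levels were 16886, 16886 and 19105 TPM in libraries A, B and D. In library A Tubb3 was higher, at 17732 TPM, so Tuba1a ranked first by mean but not in every library. Sncg was second by mean, at 16880 ± 3071 TPM. Tuba1a made up 97.4%, 97.0% and 97.4% of the alpha-tubulin total in A, B and D, a mean of 97.3 ± 0.214%.

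Tuba1b, a broadly expressed isotype, was second with 408.8, 470.0 and 467.9 TPM in A, B and D, or 2.48 ± 0.190% of the total. Tuba4a, whose protein lacks an encoded tyrosine, had 36.3, 43.2 and 44.8 TPM, or 0.229 ± 0.0193%. Tuba1c, another broadly expressed isotype, had 4.34, 4.83 and 5.47 TPM, and Tuba8 had 1.66, 2.82 and 1.42 TPM. The order of these 5 genes was the same in every library and the ranges of neighbours did not overlap.

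Tuba3a and Tuba3b, known as testis isotypes, were near or below detection. Tuba3b had 1, 3 and 4 counts in A, B and D, and Tuba3a 0, 0 and 2. For Tuba3a, the 0 counts allow up to 0.25 TPM in library B, taking 3 counts as the limit. These limits cover counting error only.

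Grouped by the last residue encoded, isotypes ending in tyrosine held 99.8 ± 0.0229% of alpha-tubulin TPM (99.8%, 99.7% and 99.8% in A, B and D). Tuba4a, ending in glutamate, held the 0.229% given above, and Tuba8, ending in phenylalanine, 0.0110 ± 0.00465%. Isotypes with lysine at codon 40 held 99.99% of the total in A and D and 99.98% in B.

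Beta-tubulin mRNA was spread over 6 genes. Tubb3, the class III isotype used as a neuronal marker, was highest at 14755 ± 2579 TPM and ranked 3 among all genes, with 17732, 13327 and 13207 TPM in libraries A, B and D. Its share of the beta-tubulin total was 60.3%, 54.1% and 52.3% (mean 55.6 ± 4.15%), library A being the high one.

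Tubb5, a widely expressed isotype, followed with 4779, 4814 and 4886 TPM in A, B and D, the narrowest relative spread of any beta-tubulin, and 18.4 ± 1.86% of the total. Tubb2a, a neuron-enriched isotype, had 2672, 2361 and 2665 TPM in the same order, and Tubb4a, best known from brain, 2076, 2365 and 2175 TPM. Their ranges overlapped, Tubb2a being higher in 2 of 3 libraries, so their order was not fixed. They held 9.74 ± 0.754% and 8.42 ± 1.28% of the total.

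Tubb2b, needed for neuronal migration in the cortex, had 1674, 1248 and 1718 TPM in A, B and D, or 5.85 ± 0.882%. Tubb4b, a broadly expressed isotype also used in cilia, had 476.6, 494.0 and 566.1 TPM, or 1.96 ± 0.315%. Library B was lowest for both members of the Tubb2 pair.

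Tubb6, a broadly expressed isotype of low level, had 20.6, 24.5 and 15.5 TPM in A, B and D, far below these. Tubb1, the beta-tubulin of platelets and megakaryocytes, had 1, 0 and 1 counts, and the 0 of library B allows up to 0.268 TPM. Of the 6 platelet markers, Gp1bb had 25, 22 and 61 counts in A, B and D, Itga2b 22, 20 and 35, and Pf4 9, 8 and 27. Ppbp and Gp9 had at most 2 counts in any library, and Treml1 none.

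**Figure D1:**
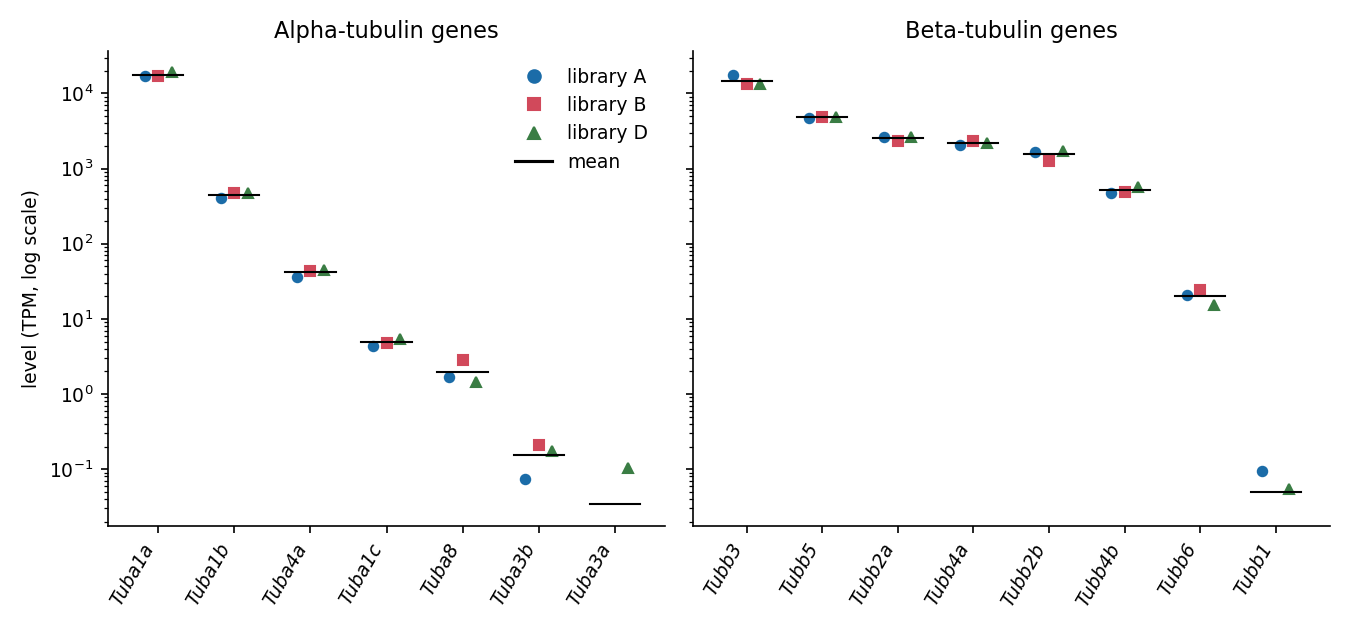
Level in TPM (log scale) of each alpha- and beta-tubulin gene in libraries A, B and D, with the mean as a black line; libraries with 0 counts (Tuba3a in A and B, Tubb1 in B) have no point. Tuba1a stands alone among alpha-tubulins at 17626 TPM, whereas 5 beta-tubulins average over 1000 TPM.

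**Figure D2:**
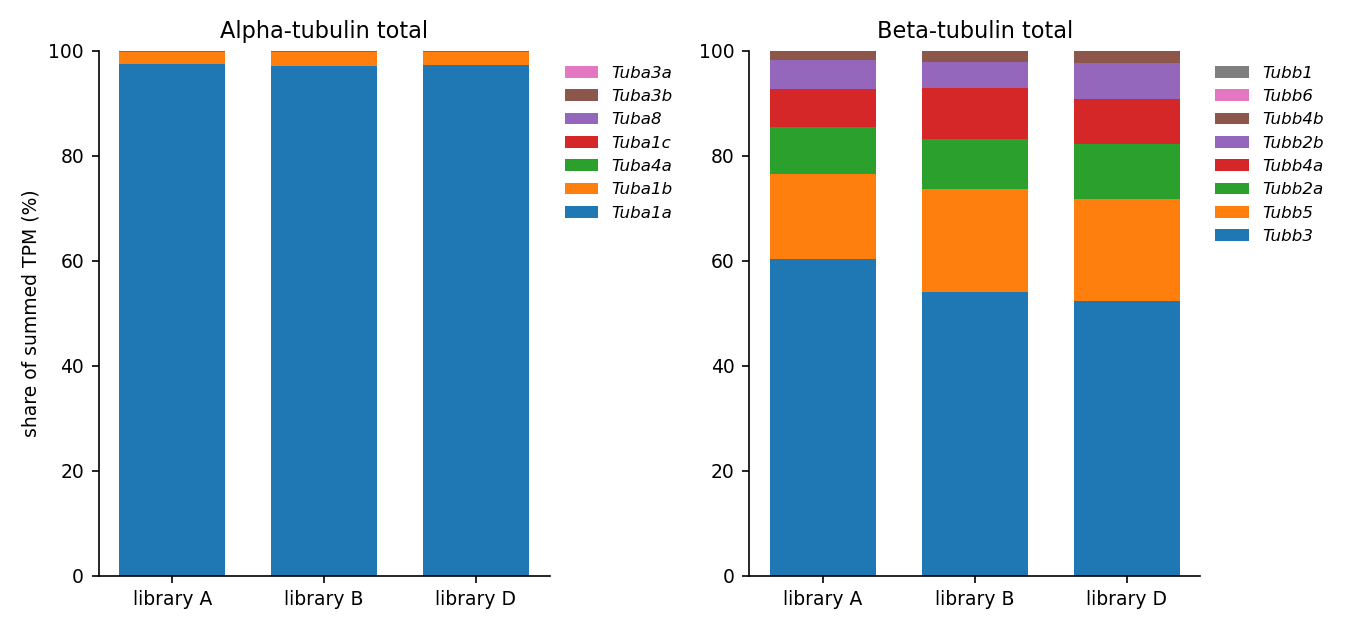
Share of each isotype in the summed TPM of the alpha- and beta-tubulin genes, 1 bar per library. Tuba1a fills 97.0 to 97.4% of the alpha total, while Tubb3 takes 52.3 to 60.3% of the beta total and Tubb5 16.2 to 19.5%.

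Near-identical copies limit these values. Reads here may match several genes, and how such reads were counted is not given in the sources used here. Only 24.5% of the 50-base windows of the longest Tuba1a transcript and 16.9% of those of Tuba1b were found in no other annotated gene, against 100% for Tubb3 and 99.9% for Tubb5. For Tubb2a the share was 50.4%, for Tubb2b 60.7% and for Tubb4b 44.5%. Gm17383, a listed gene that shares 817 of the 1754 windows of Tuba1a, had 25, 18 and 28 counts in A, B and D, where Tuba1a had 210859, 221489 and 407193. Tubb4b-ps1, which shares 675 of 1549 windows with Tubb4b, had 47, 30 and 86 counts. So reads of these members were not counted in full again at such copies. With the number of unshared windows in place of gene length, Tuba1a still held 95.7% of the alpha total, Tuba1b 4.15%, and Tubb3 held 46.2% of the beta total. On that scale Tubb2a held 15.9%, Tubb2b 7.03%, Tubb4a 6.98% and Tubb4b 4.79%, so the near-tie of Tubb2a with Tubb4a and the order of Tubb4a and Tubb2b rested on the length used. Tuba4a shares 1379 exon bases, 37.3% of its length, with Stk16 on the opposite strand, so its level is uncertain where strand was not used.

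Summed, alpha-tubulins reached 18123 ± 1301 TPM and beta-tubulins 26432 ± 2614 TPM. Together they made up 4.68%, 4.2% and 4.49% of all TPM in libraries A, B and D. The log2 ratio of the alpha to the beta total was -0.76, -0.50 and -0.36 in these libraries, a mean of -0.54 ± 0.20. An exact permutation test that flips the signs of 3 values (two-sided) cannot go below p = 0.25, which this ratio reached, so no ratio given here could pass 0.05. The direction rested on the length used: with unshared windows as length, the log2 ratio was 1.12.

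Within the alpha-tubulins, the log2 ratio of Tuba1a to Tuba1b was 5.30 ± 0.11, a 39.3-fold difference in level, and it was 4.53 with unshared windows. Tuba1a exceeded Tuba4a by a log2 ratio of 8.74 ± 0.12, which was 9.30 with unshared windows and 7.57 in CPM. Within the beta-tubulins, Tubb3 was 3.03-fold above Tubb5, with log2 ratios of 1.89, 1.47 and 1.43 in A, B and D. The mean log2 ratio was 1.60, against 1.27 with the longest transcript as length, 1.28 with unshared windows and 0.77 in CPM. Tubb2b was below Tubb2a in every library (mean log2 ratio -0.74 ± 0.15), and Tubb4b was below Tubb4a in every library (-2.11 ± 0.16). The last ratio was -0.54 with unshared windows as length.

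Tuba1b, Tuba1a and Tuba1c lie side by side on chromosome 15, spanning chr15:98931425-98934565, chr15:98949841-98953551 and chr15:99029891-99038105. Neighbours on that stretch thus differed widely in level: 448.9 ± 34.8, 17626 ± 1281 and 4.88 ± 0.570 TPM. Tubb2a (chr13:34074301-34078008) and Tubb2b (chr13:34127008-34130354) are also neighbours, and their levels were within 1.67-fold on average.

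Gamma-tubulin caps the minus end and starts new microtubules. Tubg1, the main gamma-tubulin, had 106.3, 107.7 and 116.2 TPM in A, B and D, and Tubg2, its close copy on chromosome 11, had 62.7, 65.4 and 45.4 TPM. The log2 ratio of Tubg1 to Tubg2 was 0.95 ± 0.36 and positive in every library, and their coding sequences were 93.3% identical. Delta-tubulin (Tubd1) and epsilon-tubulin (Tube1) are needed for the triplet microtubules of centrioles. Tubd1 had 27.1, 18.2 and 17.1 TPM and Tube1 averaged 4.68 ± 1.02 TPM.

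The tubulin cofactors fold the subunits and join them into dimers. Tbcb, which holds alpha-tubulin, had 754.8, 892.2 and 833.8 TPM in A, B and D, and Tbca, which holds beta-tubulin, 407.7, 613.8 and 884.8 TPM. Library A was lowest for both and library D highest for Tbca. The later-acting cofactors averaged under 40 TPM. Tbce, which handles alpha-tubulin, had 50.1, 31.4 and 37.9 TPM, and Tbcd, which handles beta-tubulin, averaged 39.3 ± 19.2 TPM. Tbcc, which triggers release of the finished dimer, had 29.6, 62.5 and 10.6 TPM, the widest range of all members tested. Tbcb shares 22.5% of its exon bases with Polr2i on the opposite strand.

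Structural MAPs were led by Map1b, the MAP of early axon growth, with 2316, 2171 and 1669 TPM in A, B and D. Mapt, which encodes tau and is enriched in axons, was second with 412.9, 436.6 and 430.0 TPM. Map7d2, a relative of the kinesin-1 partner Map7, came next by mean TPM, with 109.5, 76.2 and 99.6 TPM. Of the summed TPM of the 11 structural MAPs, Map1b held 71.4 ± 2.42% and Mapt 15.1 ± 2.37%.

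The other structural MAPs averaged under 100 TPM. Map4, the widespread MAP of non-neuronal cells, had a mean of 81.6 ± 26.2 TPM and Map9, a spindle and ciliary MAP, 43.4 ± 10.7 TPM. Map6, which protects microtubules from cold, averaged 32.3 ± 8.08 TPM, and the kinesin-1 partners Map7 and Map7d1 31.3 ± 7.51 and 24.2 ± 8.52 TPM. Map2, the MAP of mature dendrites, averaged 22.1 ± 11.1 TPM and Map1a, the adult relative of Map1b, 20.6 ± 4.72 TPM. Map1s, a short member of the Map1 family, had 50.8, 50.3 and 10.0 TPM in A, B and D, library D being the low one. The ranges of Map7d2 and Map4 overlapped, Map7d2 being higher in 2 of 3 libraries by TPM. In counts Map4 was higher in each library, with 9777, 10934 and 9186 against 3420, 2500 and 5311. The deposited length of Map4 (13780 bases) is well above its longest annotated transcript (6091 bases). From Map9 downward, neighbouring ranges overlapped too. The order of Map7d2 and Map4, and that from Map9 downward, is thus not resolved.

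Ratios between MAPs that are paired in textbook accounts were large. Map1b was 100.4-fold above Map1a, with log2 ratios of 7.15, 6.40 and 6.39 in A, B and D. Map1b exceeded Map2 by a log2 ratio of 6.63 ± 0.56, and Map2 stood below Mapt by -4.38 ± 0.71. The deposited length of Map2 (16449 bases) is well above its longest annotated transcript (6258 bases), and with that transcript as length these ratios were 5.24 for Map1b over Map2 and -3.50 for Map2 over Mapt. The summed structural MAPs stood below the summed tubulins by a log2 ratio of -3.97 ± 0.21, a 15.6-fold lower level. With unshared windows as length this was -5.00, and in CPM, with no length correction, -1.52.

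Doublecortin family genes bind the lattice in migrating and growing neurons. Dcx had 94.4, 57.0 and 60.1 TPM in A, B and D and Dclk1, a doublecortin-like kinase, 70.6, 59.0 and 48.1 TPM. The log2 ratio of Dcx to Dclk1 was 0.42, -0.05 and 0.32, so the 2 genes could not be ordered (exact sign-flip permutation p = 0.5). Dclk2, the second such kinase, had 14.6, 19.7 and 9.34 TPM.

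At growing ends, the end-binding proteins Mapre2 (EB2) and Mapre1 (EB1) were highest, with 320.7, 257.5 and 155.6 TPM for Mapre2 and 232.4, 202.5 and 166.4 TPM for Mapre1 in A, B and D. In TPM, library D was the low one for both, but in TMM-scaled CPM Mapre1 was lowest in B. Mapre2 was the higher gene in 2 of 3 libraries by TPM. In counts Mapre2 was higher in each, with 24806, 20921 and 20545 against 13762, 12597 and 16822. The deposited length of Mapre2 (10202 bases) is well above its longest annotated transcript (4026 bases). Clasp2, which stabilises plus ends at the cell edge, had 103.2, 61.1 and 61.0 TPM. Mapre3 (EB3), known as the neuron-enriched end-binding protein, averaged 38.5 ± 21.7 TPM, below Mapre2 by a log2 ratio of -2.76 ± 0.63, or -3.62 with the longest transcript as length.

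Ckap5, a microtubule polymerase, had 45.3, 16.1 and 29.8 TPM in A, B and D, library B being the low one. Clip1, which links plus ends to cargo and membranes, averaged 17.8 ± 5.70 TPM and its relative Clip2 6.36 ± 3.35 TPM. Clasp1 averaged 15.7 ± 5.80 TPM, and Clasp2 exceeded it by a log2 ratio of 2.28 ± 0.23 (1.4 with the longest transcript as length). Clip2 stood below Clip1 by -1.57 ± 0.72 (-2.25 with that length).

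At minus ends, Camsap2 had 20.2, 15.7 and 13.2 TPM in A, B and D and Camsap1 13.9, 15.3 and 11.3 TPM. These proteins keep minus ends that are free of a centrosome. Camsap1 was below Camsap2 in every library, by a log2 ratio of only -0.26 ± 0.25. With unshared windows as length the ratio was 0.02, so the pair is not ordered. Camsap3, the epithelial relative, had 2.70, 5.55 and 1.53 TPM, and shares 13.2% of its exon bases with Xab2 on the opposite strand.

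The severing enzymes were both detected. Katna1, the catalytic subunit of katanin, had 36.7, 33.4 and 33.9 TPM in A, B and D, and Spast, the gene of a hereditary spastic paraplegia in people, 19.2, 26.0 and 18.8 TPM. Of the modifying enzymes, Ttl, which puts the tyrosine back on alpha-tubulin, had 30.3, 40.1 and 23.8 TPM. Hdac6, which removes acetyl groups from lysine 40, had 32.5, 27.3 and 15.5 TPM. In TPM, library D was the lowest for Spast, Ttl and Hdac6; in TMM-scaled CPM, A was lowest for Spast.

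**Figure D3:**
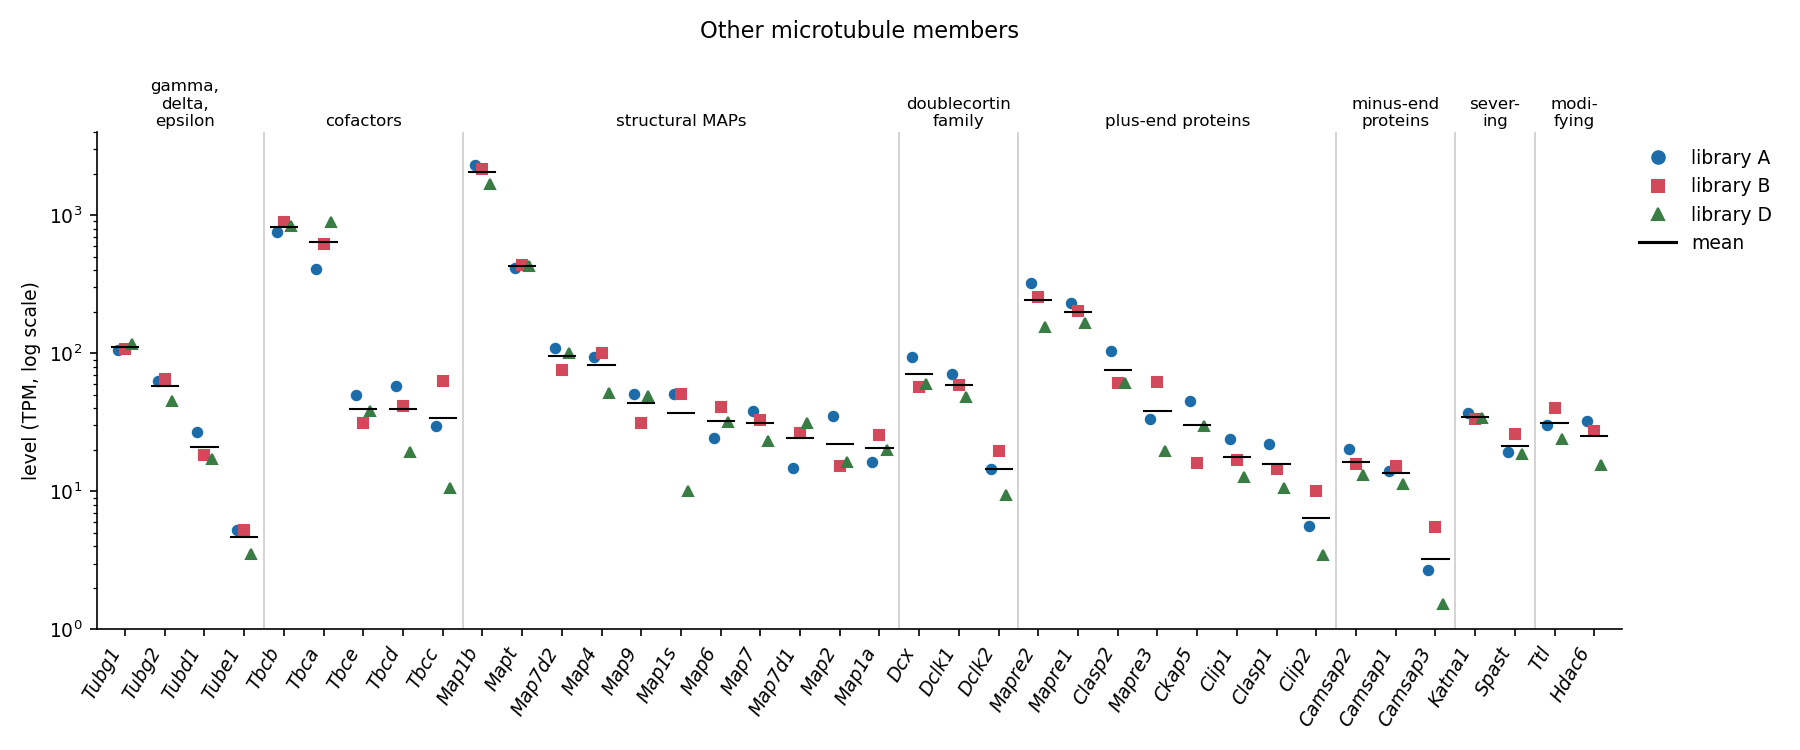
Level in TPM (log scale) of the 38 members other than alpha- and beta-tubulins, by class and falling mean, with 1 point per library and the mean as a black line. Map1b (2052 TPM), Tbcb (827 TPM) and Tbca (635 TPM) stand highest, and the triangles of library D lie far below the other points for Map1s and Tbcc.

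**Figure D4:**
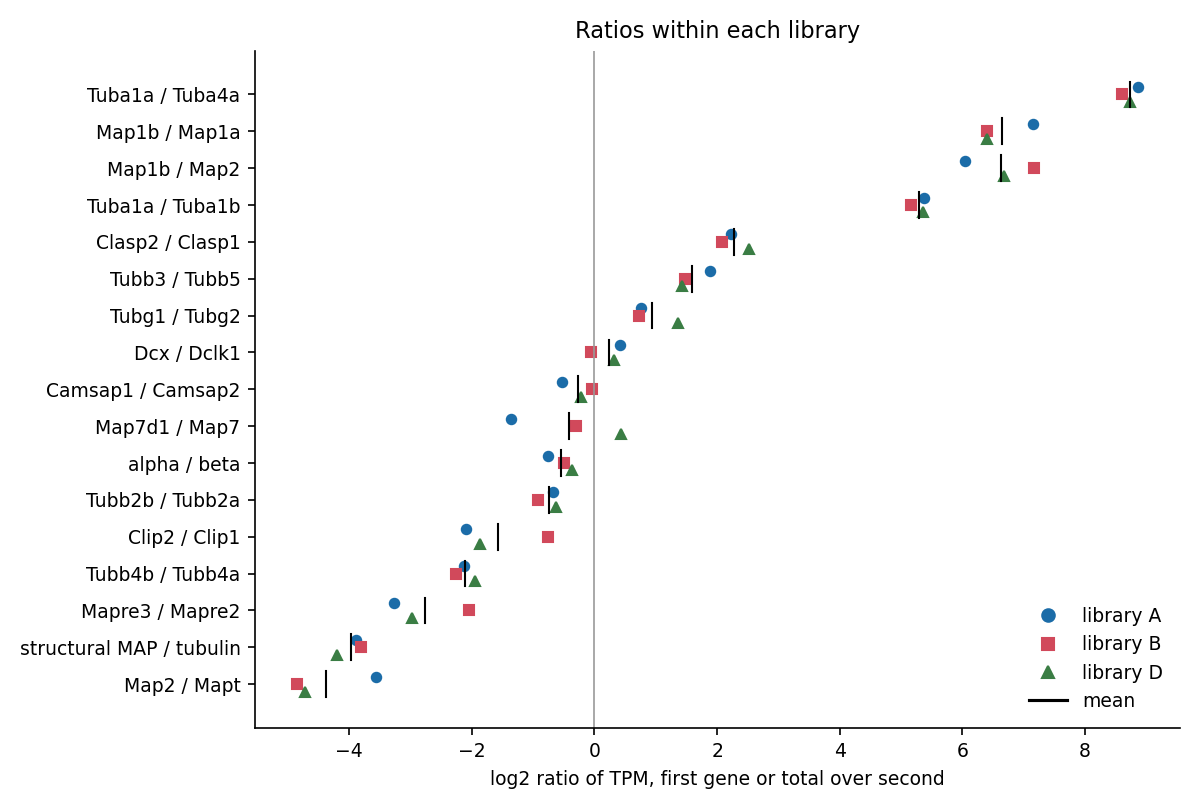
Log2 ratio of TPM in each library for 15 pairs of members and 2 pairs of totals, first name over second, with the mean as a black line; 0 means equal levels. The points of Dcx over Dclk1 and of Map7d1 over Map7 fall on both sides of 0, and those of every other pair on 1 side.

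Of the 17 ratios, 15 had the same sign in each library. Their exact sign-flip permutation p was 0.25, the smallest possible (Benjamini-Hochberg adjusted over the 17, 0.283). The other 2 were Dcx over Dclk1, given above, and Map7d1 over Map7, which had log2 ratios of -1.36, -0.31 and 0.44 in A, B and D. Levels within a class followed the same order in every library for 26 of 43 neighbouring members, and the ranges of 20 of the 43 overlapped.

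A mean of 1 TPM or more was reached by 50 of the 53 members, or 94.3%, and by 33.6% of all 41388 genes. The 3 below were Tuba3a, Tuba3b and Tubb1. At 100 TPM the shares were 28.3% of members and 3.96% of all genes. The median level of the members was 37.0 TPM, against 0.103 TPM over all genes and 10.8 TPM over the 13897 genes at 1 TPM or more. The members were named with such levels in view, so these counts describe them and test nothing.

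The 64 other microtubule genes listed for comparison give the enzymes and partners around the members. At 1 TPM or more were 60 of 64, with a median of 10.8 TPM. Among the 18 other modifying enzymes, 15 reached 1 TPM, led by Svbp, the partner of the vasohibin detyrosinating enzymes (234.8 ± 42.8 TPM). Ttll1, a catalytic polyglutamylase, followed with 213.5 ± 39.2 TPM and Tpgs1, a subunit of the same complex, with 128.8 ± 81.7 TPM. The vasohibins themselves were unequal: Vash2 averaged 45.4 TPM and Vash1 2.49 TPM. Atat1, the lysine 40 acetyltransferase, averaged 108.2 TPM; it and the vasohibins were named after their values were seen.

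Among 18 nucleation factors all reached 1 TPM, led by Mzt2 (157.8 ± 20.3 TPM) and Mzt1 (72.3 ± 9.37 TPM), small subunits of gamma-tubulin complexes, and by Haus1 of the augmin complex (84.3 ± 8.40 TPM). Of the 6 other severing genes, all of which reached 1 TPM, the katanin-like Katnal1 averaged 12.8 ± 3.85 TPM and Fignl1 4.11 ± 1.82 TPM. Of 10 other end-binding and crosslinking genes, the dynein regulators Ndel1 (106.3 ± 52.3 TPM) and Pafah1b1 (43.4 ± 2.61 TPM) were highest, followed by Tacc2 (13.4 ± 3.62 TPM). Of 12 other MAPs and folding genes, 11 reached 1 TPM, led by Tppp3 (1133 ± 219.5 TPM), and by the light chains Map1lc3b (420.8 ± 26.7 TPM) and Map1lc3a (385.5 ± 32.9 TPM), best known from autophagy.

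Differences between the libraries were then set against those of all genes, since 1 group allows no contrast. With edgeR's intercept-only negative binomial fit and a goodness-of-fit test per gene, 24 of 13530 genes tested (0.177%) varied between libraries beyond other genes of their level at a Benjamini-Hochberg adjusted p of 0.05. None of the 50 members tested was called. At an unadjusted p under 0.05, 4 of the 50 members and 827 of 13530 genes (6.11%) were found, so the members' share was close to that of all genes. None of the 61 other microtubule genes tested was called, and 3 had an unadjusted p under 0.05. The 3 members not tested for low counts were Tuba3a, Tuba3b and Tubb1.

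The 5 members with the widest range between libraries were Tbcc, Map1s, Camsap3, Ckap5 and Tbca. In log2 CPM, Tbcc was 1.65 above the mean of the other libraries in B and -1.67 from it in D, a 4.65-fold range (edgeR goodness-of-fit adjusted p = 0.271). Map1s was -1.99 from the others in D, a 3.98-fold range (adjusted p = 0.245). Camsap3 spanned 2.84-fold with B highest, and Ckap5 2.80-fold with B lowest. Tbca spanned 2.74-fold with D highest. With the trend of the library differences with gene length removed, Tbcc spanned 5.18-fold, Map1s 3.71-fold, Camsap3 2.47-fold, Ckap5 2.43-fold and Tbca 1.38-fold. Tbca, at 503 bases the shortest member, spanned 2.97-fold with the trend with GC content removed instead. The part of length or GC in these ranges was not tested. Over all genes tested the median range was 1.60-fold, and over the 50 members 1.55-fold.

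Gene length moved with these differences. In library D, the 12 alpha- and beta-tubulins tested had a median log2 difference of 0.42 from the other libraries, and the 38 other members -0.09. In library A, the same groups had -0.28 and 0.14. Most of these tubulins are under 2500 bases long. Among all genes under 2500 bases, the median was 0.34 in D and -0.24 in A, and among members under 2500 bases 0.36 and -0.25. For genes of 7500 bases or more, the medians were -0.09 in D and 0.25 in A over all genes, and -0.09 and 0.31 over members. Across genes, the Spearman correlation of the difference with length was 0.45 over 50 members and 0.36 over all 13530 genes in A, and -0.33 and -0.30 in D. Genes in a library share its preparation, so these values describe the libraries. Each difference is a library less the mean of the others, so a gene's differences cancel across the libraries. Opposite signs in A and D are thus not separate observations. With the length trend removed, the median of the 12 tubulins was 0.24 in D and -0.20 in A. Tubb5 (3327 bases) and Tuba4a (3701 bases) lay 0.36 and 0.51 above the others in D. There, all genes from 2500 to 7500 bases had a median of -0.15. The longest annotated transcripts of these 2 genes are shorter, at 2649 and 2840 bases. With the trend removed, Tubb5 and Tuba4a lay 0.48 and 0.68 above. The part of length in these 2 differences was not tested. Which library was lowest for a gene also depended on the scale. For 9 of the 50 members it differed between TPM and this TMM-scaled CPM, among them Tubb3, lowest in D by TPM and in B by CPM.

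Base composition moved with the differences of library B and, with the opposite sign, of library A. As with length, these opposite signs are not separate observations. In B the correlation of the difference with transcript GC content was 0.51 over members and 0.36 over all genes tested. In A it was -0.42 and -0.25, and in D -0.10 and -0.08. The 5 highest members of library B relative to the others were Tbcc, Camsap3, Mapre3, Clip2 and Map1s, and its lowest was Ckap5. Transcript GC was 55.1% or more in those 5 and 43.9% in Ckap5. Named in that order with Ckap5 last, their differences in B were 1.65, 1.27, 1.12, 1.02, 0.99 and -1.35. With the GC trend removed they were 1.24, 1.08, 0.98, 0.65, 0.55 and -1.21. Map1s lay about as high in A (1.00) as in B (0.99). Not every member followed GC. In B, Map7d1 (62.5% GC) lay 0.14 and Spast (43.5%) 0.29 above the others, and Tubb3 (57.9%) lay -0.36 from them. The part of length and GC in any single level was not tested.

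**Figure D5:**
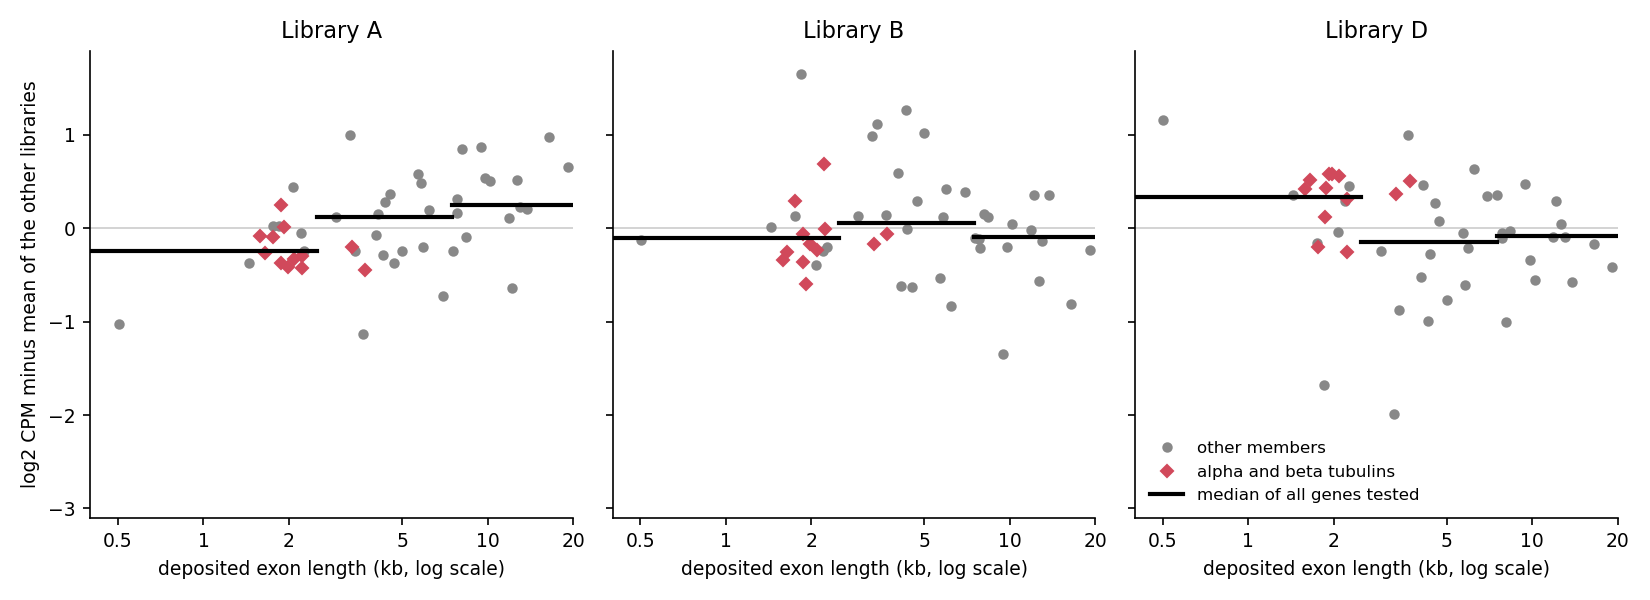
Log2 CPM of each of the 50 members tested in 1 library less its mean in the other libraries, against deposited exon length in kb (log scale); black bars are medians of all genes tested under 2500, from 2500 to 7500 and from 7500 bases. In D the alpha- and beta-tubulins other than Tuba8 and Tubb6 lie above 0 (median of all 12, 0.42), and in A those other than Tubb3 and Tubb2b lie below it (median -0.28).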

How the data were processed

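Counts per Ensembl gene were deposited by the authors for 3 libraries, with exon coordinates and lengths. The deposited CPM and RPKM are the authors' scalings of those counts, and RPKM uses the deposited length. The submitters' processing notes name Subread, featureCounts 1.4.5 and GRCm38.p2. How strand and multiple matches were set is not given in the sources used here. Per the labels' protocols, cDNA came from the SMARTer Ultra Low Input kit, without molecular identifiers.

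Symbols were taken from GENCODE M21 (40254 of 41388 identifiers matched). TPM was computed from counts and deposited lengths; shares and log2 ratios were taken within each library, ratios needing 10 counts of both genes. Terminal residues were read from GENCODE coding sequences in place of the RefSeq proteins planned. Unshared windows are 50-base windows of a gene's longest transcript found in no other gene's transcripts. Variation between libraries was assessed in R 4.3.3 by edgeR 4.0.16 (TMM, filterByExpr, trended dispersion, deviance test with 2 degrees of freedom), and the procedure was tested on simulated data. Log2 CPM used a prior count of 2. Python 3.11.15, scipy 1.17.1 and biopython 1.88 did the rest.

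Members, lists and pairs were chosen with earlier results of these data known. Every member is named; per-library values are given for alpha- and beta-tubulins, for the 3 highest of larger classes, for small classes and for the 5 widest ranges. The windows and GC alternatives were chosen after seeing the data. Some listed items are not reported here.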

Additional observations from a re-analysis of the deposited data

How the results depend on the processing

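With counts not corrected for length, the longest transcript as length, and unshared windows as length, Tuba1a held 96.6%, 96.7% and 95.7% of the alpha total, and isotypes ending in tyrosine 99.5%, 99.7% and 99.8%. Tubb3 held 48.4% and 46.2% of the beta total in the first and last of these. The last setting turned 3 ratios round: the log2 ratio of alpha to beta totals was 1.12, Dcx over Dclk1 -0.00114 and Camsap1 over Camsap2 0.0177. It assumes that every read with several matches was dropped, which is not known. Without library A, Map7d1 over Map7 was 0.0645; leaving out each library gave -0.83 to 0.0645. Other ratios kept their direction under every setting run. The number of members at 1 TPM or more stayed within 1.5 times under all thresholds. Genes called as varying numbered 55 with the length trend removed and 2 to 27 with a library left out (7 without A, 2 without B, 27 without D), and 24 with the GC trend removed; no member was called under any setting. No paired analysis was possible because there is 1 group. The 3 pools limit every test, and low counts limit Tuba3a, Tuba3b and Tubb1.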
